A study of Mus musculus with 6 samples.

Results

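The genes that make and run the lysosome were followed in 10T1/2 cells, an established fibroblast line from mouse embryos. The list holds 41 genes for lysosomal enzymes, membrane proteins, activator proteins, subunits of the proton pump and a transcription factor. A gene counted as measured when at least 1 probe set (the group of short probes that reads a transcript on an Affymetrix array) was assigned to it and to no other gene in the platform annotation. By this rule 40 of the 41 genes were measured, of 18194 genes in the series. MOE430A held 68 probe sets for 39 of them and MOE430B held 22 for 16, with 15 genes on both designs. Cd63, a tetraspanin of late endosomes, was not analysed here.

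All samples form a single group with no treatment, genotype or time contrast, so the data answer which of these genes the line expresses and how much their signals vary between its samples. Cells grew in DMEM with 10% FBS up to 80% confluency, and RNeasy total RNA was labelled with biotin. Samples 1, 4 and 5, chosen by the submitters as their best, were each hybridised to 1 array of each design. Whether each came from its own culture is not stated, and the spread over them could be technical variation alone. With 1 array per sample and design no test was made. Differences are described by their fold, with 2-fold as the mark, beside the same count over all probe sets.

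The lysosome is the acidic compartment in which cells break down proteins, glycans, lipids and nucleic acids taken up from outside or delivered by autophagy. Its soluble enzymes are mostly carried from the Golgi apparatus by mannose 6-phosphate receptors, its membrane is lined by heavily glycosylated proteins such as LAMP1 and LAMP2, and its acid is made by the vacuolar proton pump (V-ATPase). Many of these genes carry a palindromic E-box near the start site that is bound by TFEB and its relatives, and fibroblasts also use secreted cathepsins in turnover of their matrix.

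The deposited values were MAS5 signal intensities on a linear scale, and the signals of different probe sets are not compared as abundances. A background limit was set on each array at the 95th percentile of probe sets for genes restricted to distant tissues such as liver, pancreas and retina. The limits were 1358, 1546 and 994 on the MOE430A arrays of samples 1, 4 and 5, and 4868, 3869 and 5398 on MOE430B, where they rested on 7 probe sets. Detection of a probe set required a signal above the limit on 3 of 3 arrays, and 1 detected probe set sufficed for its gene. The ratio of 3′ to 5′ probe set signals, a usual check on RNA integrity and labelling, was far above 1 on every array. Its lowest value was 8.23, for beta-actin in sample 4 on MOE430B, so the low 5′ signal was not limited to 1 sample. The ratio was highest in sample 1. For Gapdh on MOE430A it was 24.7, 15.0 and 10.6 in samples 1, 4 and 5, and for beta-actin 17.5, 9.57 and 8.68. The MOE430A array of sample 5 was washed on fluidics station 2 and the other 5 arrays on station 1, per the file headers.

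Of the 40 measured genes, 27 were detected (67.5%), against 22.4% of all 18194 genes. On MOE430A, 40 of 68 probe sets of these genes were detected (58.8%), against 21.4% of all 20393 probe sets naming 1 gene. On MOE430B only 2 of 22 were detected (9.09%), against 6.67% of 14674, and both belonged to probe sets that also lie on MOE430A, those of Psap and Atp6v0d1. By role, all 4 proteases outside the thiol class, all 3 lipid hydrolases and all 4 measured membrane proteins were detected. The count was 6 of 7 for proton pump genes, 3 of 4 for lipid transfer and activator proteins, 4 of 7 for glycosidases, 3 of 10 for thiol proteases and 0 of 1 for the transcription factor. When the majority of a gene's probe sets had to pass, 16 genes were detected. The share of all genes by that rule was not taken, so 22.4% is not its counterpart. A gene that was not detected may still be transcribed below the limit of its probe sets.

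The promoters were searched for the E-box, a known shared element of lysosomal genes, as a description of their sequence. RefSeq promoters of the mouse build GRCm38.p6, from 250 bases before to 50 after the start site, were at hand for 35 of the 41 genes. Those of Ctsb, Ctsh, Asah1, Npc1, Atp6v1b2 and Atp6v1h were not used here. The core CACGTG, which reads the same on both strands, was present in 13 of the 35 promoters (37.1%), against 8.09% of 27025 promoters in the table. The longer palindrome TCACGTGA, which contains the core, was present in 7 of 35 (20%), against 1.12%. A match describes letters and does not show binding.

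Windows around the matches are printed below, 5′ to 3′ on the strand of the gene, with the motif in capitals. The first is Lamp1, chr8:13159070-13159181 on the plus strand, which had the most matches of the core, 4, starting 61, 45, 28 and 15 bases before the start site. The other 7 are all the members with the longer motif, so that the letters around it can be compared. They are Mcoln1 (chr8:3500418-3500510, plus), Ctsa (chr2:164833730-164833814, plus), Ctsd (chr7:142387889-142387956, minus), Gla (chrX:134601163-134601255, minus), Atp6v0d1 (chr8:105566031-105566098, minus), Atp6v0e (chr17:26676368-26676435, plus) and Atp6v1a (chr16:44139354-44139421, minus).
Lamp1: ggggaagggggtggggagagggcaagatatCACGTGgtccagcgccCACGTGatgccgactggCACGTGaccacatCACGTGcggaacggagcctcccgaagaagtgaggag
Mcoln1: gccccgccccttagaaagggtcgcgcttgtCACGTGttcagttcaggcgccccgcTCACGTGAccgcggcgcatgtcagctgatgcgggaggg
Ctsa: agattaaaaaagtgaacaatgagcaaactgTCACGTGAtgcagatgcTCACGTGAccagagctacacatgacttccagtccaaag
Ctsd: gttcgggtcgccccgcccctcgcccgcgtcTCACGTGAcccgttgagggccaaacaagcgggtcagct
Gla: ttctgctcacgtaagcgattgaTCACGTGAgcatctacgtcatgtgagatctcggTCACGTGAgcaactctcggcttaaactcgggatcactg
Atp6v0d1: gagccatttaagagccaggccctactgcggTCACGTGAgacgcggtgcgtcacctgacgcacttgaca
Atp6v0e: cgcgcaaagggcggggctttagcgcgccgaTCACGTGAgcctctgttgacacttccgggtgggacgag
Atp6v1a: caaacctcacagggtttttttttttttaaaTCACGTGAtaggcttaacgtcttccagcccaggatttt

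The longer motif lay close to the start site in 4 of these genes. It began 46 bases before the start in Mcoln1, 4 before it in Atp6v0d1, at base 3 of the transcript in Atp6v0e, and both 13 bases before the start and at base 5 in Ctsa. In Ctsd it lay 99 bases before the start, in Atp6v1a 132, and in Gla at 228 and 195. The core without the longer form was found in Ctsf, Ctsl, Lgmn, Glb1, Gaa and Lamp1. Of the 7 genes with the longer motif, 6 were detected, all but Gla, and of the 28 promoters without it 18 belonged to detected genes.

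**Figure D1:**
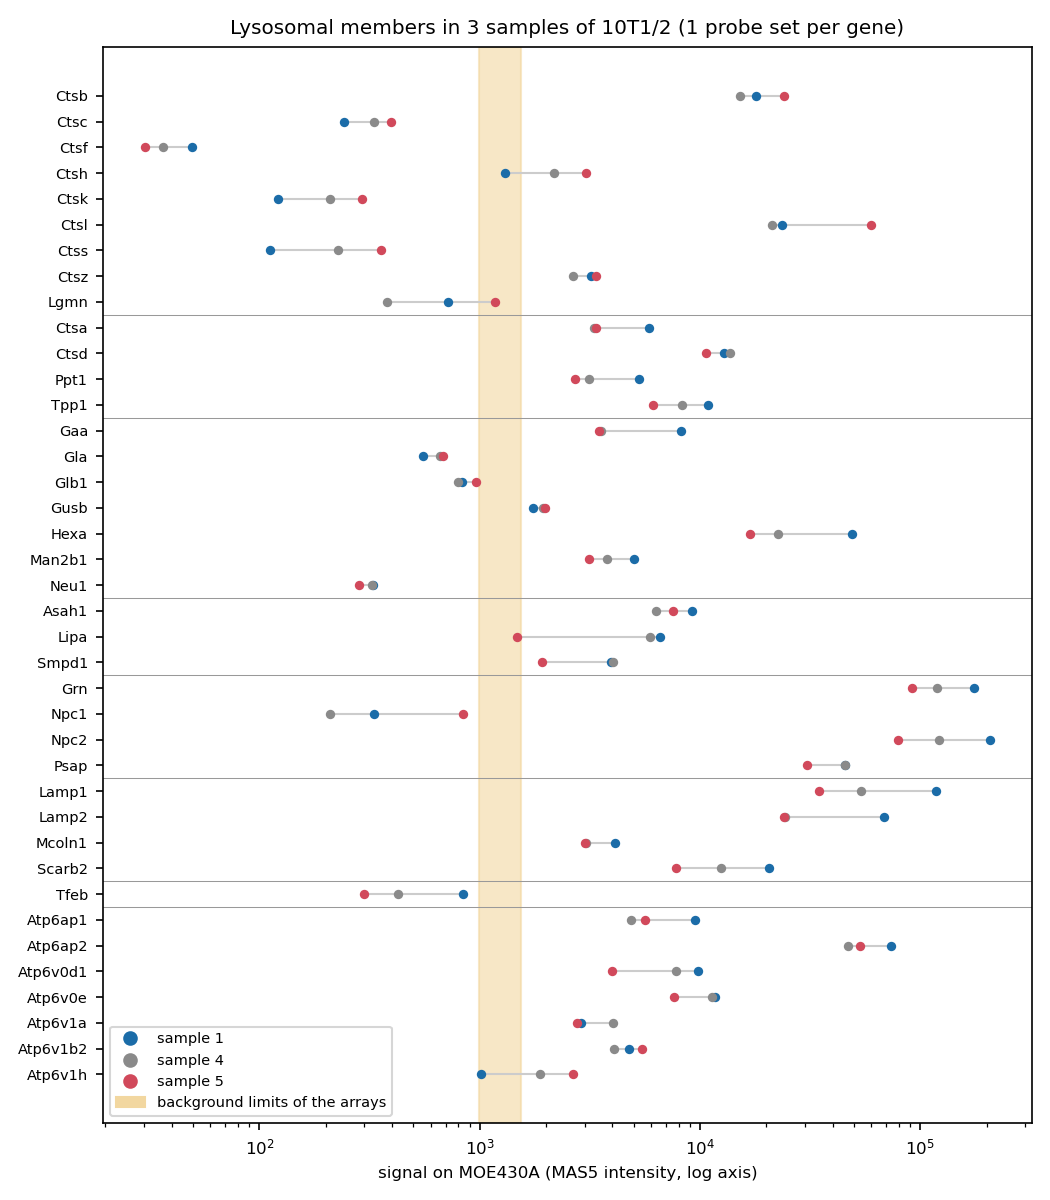
Signals of the 39 genes measured on MOE430A, 1 probe set per gene, on a log axis of MAS5 intensity, with samples 1, 4 and 5 as coloured points, roles separated by lines and the limits of the 3 arrays as a band. Most points of sample 1 lie at the right of their line (Lamp1 at 118219, Hexa at 49047), while Ctsl is highest in sample 5 at 59794.

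The plot of signals by gene shows the main pattern of the group. Signals of 45 member probe sets on MOE430A had a geometric mean over the 3 samples above that of the limits and were kept for comparisons between samples. They belonged to 29 genes. Among them 28 were highest in sample 1 (62.2%), against 34.8% of the 5730 probe sets of all genes kept in the same way. Sample 4 was highest for 6 (13.3%, against 29%) and sample 5 for 11 (24.4%, against 36.3%). Counted by gene, with 1 probe set each, 19 of 29 were highest in sample 1 and 18 were lowest in sample 5. Shares over all genes were not taken by that rule, so those by probe set are not their counterpart. By probe set 25 of 45 were lowest in sample 5 (55.6%), against 39% of all 5730, for which it was also the commonest lowest sample.

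The size of this difference was expressed as a deviation, the log2 signal of a sample minus the mean log2 signal of the other 2, so that a fold is taken against their geometric mean. The median deviation of the 45 probe sets was 0.51 in sample 1 (1.43-fold higher), -0.06 in sample 4 and -0.39 in sample 5 (1.31-fold lower). Over all 5730 probe sets it was -0.01, 0.03 and -0.01. The range from the lowest to the highest sample was at least 2-fold for 21 of the 45 (46.7%), against 30.8% of all, and its median was 1.96-fold against 1.65-fold. With sample 1 left out, 5 probe sets had a 2-fold range and the median of sample 5 against sample 4 was -0.11. With sample 5 left out, 6 had such a range and the median of sample 1 against sample 4 was 0.33. Shares over all probe sets were not taken with a sample left out.

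Large deviations were mostly those of sample 1 upward and sample 5 downward. Sample 1 was at least 2-fold above the mean of the others for 9 of 45 probe sets (20%), against 6.34% of all, and these belonged to 7 genes, Gaa, Hexa, Lipa, Npc2, Lamp1, Lamp2 and Scarb2. It was 2-fold below for 1 (2.22%, against 8.12%), that of Atp6v1h. Sample 5 was 2-fold below for 6 (13.3%, against 8.01%), of Lipa, Smpd1, Lamp1, Scarb2 and Atp6v0d1, and 2-fold above for 1 (2.22%, against 8.74%), that of Ctsl. Sample 4 was 2-fold above for 1, a probe set of Lipa, and 2-fold below for 1, a probe set of Ctsb, each 2.22% against 3% and 2.64% of all.

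The thiol proteases, which cut proteins with a cysteine in the active site, were more often highest in sample 5 than in sample 1. Ctsl, an endopeptidase that is also secreted by growing fibroblasts, had signals of 23645, 21326 and 59794 in samples 1, 4 and 5 (mean 34922 ± 21571, SD, n = 3). Sample 5 was 2.66-fold above the mean of the others, which lay close together. Ctsb, an endopeptidase and carboxypeptidase, had 18034, 15234 and 24090 on its brightest probe set, highest in sample 5, with a range of 1.58-fold. Its other kept probe sets differed in order, with 2679, 778 and 2370 on one and 1289.7, 1950.2 and 3024 on the other, so sample 1 was the highest on the former and the lowest on the latter. Ctsh, an aminopeptidase, was above the limit on 2 of 3 arrays of each design, with 1306, 2175 and 3034 on MOE430A and 3251, 5811 and 8279 on MOE430B. These are different probe sets on different arrays, and on both the order was sample 1, sample 4, sample 5 from low to high, with ranges of 2.32-fold and 2.55-fold.

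Ctsz, a carboxypeptidase, gave 3199, 2658 and 3382 on the probe set of highest signal, with a range of 1.27-fold and sample 5 highest. Its second detected probe set gave 3167, 2638 and 2322, with sample 1 highest and sample 5 lowest. Another Ctsz probe set, above the limit on 2 of 3 arrays, gave 1776, 852 and 1075, a range of 2.09-fold, again with sample 1 highest. Over the 7 kept probe sets of this class, of 4 genes, the median deviation in sample 5 was 0.72 (1.64-fold higher). Of the 7, 5 were highest in that sample, against 36.3% of all kept probe sets. The deviation was -0.09 in sample 1 and -0.31 in sample 4.

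The remaining 6 thiol proteases were not detected, and none had a kept probe set. Ctsk, the collagen-cutting protease of osteoclasts, gave 121, 209 and 294. Ctss, best known from antigen-presenting cells, gave 111, 227 and 356. Both lay under the limit on all arrays, in the order sample 1, sample 4, sample 5. On MOE430A Ctsc, a dipeptidyl peptidase that activates granule proteases of leukocytes, gave 242, 330.1 and 398, and Ctsf gave 49.4, 36.4 and 30.3. Brighter probe sets on MOE430B, also under the limits, gave 1259, 1325 and 608 for Ctsc and 2157, 828 and 3177 for Ctsf. The order of samples differed between the designs for each gene. Lgmn, which cuts after asparagine, gave 717, 379.6 and 1176 and passed the limit in sample 5 alone. Ctso, measured on MOE430B only, gave 5362, 3872 and 2946 and passed it in samples 1 and 4.

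Among the other proteases, Ctsd, the main aspartic protease of the lysosome, was nearly level with 12908, 13629.7 and 10611, a range of 1.28-fold, the smallest of its class. Ppt1, which removes fatty acids from proteins, had the largest range with 5284, 3128 and 2698, or 1.96-fold, and was highest in sample 1. Tpp1, a tripeptidyl peptidase, had a range of 1.78-fold with the same order. Ctsa, the carboxypeptidase that shields beta-galactosidase and sialidase from degradation, was measured on both designs by different probe sets. It had 5892, 3317 and 3378 on MOE430A and 6986, 5292 and 4950 on MOE430B, so sample 1 was highest on both, by 1.76-fold and 1.36-fold over the mean of the others.

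The glycosidases held some of the clearest differences. Hexa, the alpha subunit of beta-hexosaminidase, which degrades GM2 ganglioside, gave 49047, 22616 and 16850. Sample 1 was 2.51-fold above the mean of the others and the range was 2.91-fold. Gaa, which releases glucose from glycogen, gave 8236, 3571 and 3493 on the probe set of highest signal and 3580, 2202 and 1644 on the other, with sample 1 highest on both, 2.33-fold and 1.88-fold above. Man2b1, an alpha-mannosidase, had the same order with a range of 1.61-fold. Gusb, the beta-glucuronidase, differed from these in being level, with 1739.7, 1932 and 1987, a range of 1.14-fold and the smallest of any kept probe set in the group.

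The signals of the 3 glycosidases that were not detected are given by the brightest MOE430A probe set of each. Gla, the alpha-galactosidase, gave 551, 657 and 681, and Glb1, the beta-galactosidase whose activity is used as a senescence stain, gave 832, 795 and 962. Neu1, the sialidase that works in a complex with Ctsa and Glb1, gave 329, 325 and 283. Other probe sets of Gla and Neu1, also under the limits on all arrays, had ranges from 2.81-fold to 7.26-fold. Thus Ctsa was detected while both of its partners stayed below the limit on all arrays. Over the 5 kept probe sets of the class the median deviation was 0.91 in sample 1 (1.88-fold higher), -0.14 in sample 4 and -0.63 in sample 5.

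By their medians the lipid hydrolases had samples 1 and 4 alike and sample 5 low, though Asah1 did not. Lipa, the acid lipase that frees cholesterol from its esters, gave 6559.6, 5909.8 and 1482, and sample 5 was 4.20-fold below the mean of the others. Its second probe set gave 3549, 5627 and 1826, and another 1727, 1372 and 977, so sample 5 was lowest on all 3, with ranges of 4.43-fold, 3.08-fold and 1.77-fold. Smpd1, the acid sphingomyelinase, gave 3964, 4027 and 1919 on MOE430A, with samples 1 and 4 nearly equal and sample 5 2.08-fold below their mean. On MOE430B a different Smpd1 probe set, above the limit on 1 array, gave 3928, 7664 and 2299, again lowest in sample 5.

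Asah1, the acid ceramidase, had the smallest range of the lipid hydrolases, with 9194, 6327 and 7524, and its low sample was sample 4. Over the 5 kept probe sets of these 3 genes the median deviation in sample 5 was -1.06 (2.08-fold lower), and sample 5 was lowest for 4 of the 5, as it was for 39% of all kept probe sets. Samples 1 and 4 had medians of 0.51 and 0.55.

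Npc2, the soluble protein that hands cholesterol to the membrane protein NPC1, gave 206716, 121300.0 and 79545 on its brightest probe set. A second probe set on MOE430A gave 49226, 41113 and 24088, and one on MOE430B gave 9571, 5656 and 4576. All 3 ran from sample 1 down to sample 5, with ranges of 2.60-fold, 2.04-fold and 2.09-fold. Npc1 itself gave 332, 210.3 and 841 and was below the limit on all arrays, highest in sample 5. Its range therefore lies wholly under the limits.

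Grn, the precursor of lysosomal granulins, was detected by 3 probe sets with ranges of 1.91-fold, 1.34-fold and 2.24-fold, all lowest in sample 5. Psap, the precursor of the saposins that help enzymes reach sphingolipids, gave 45758, 45382 and 30486 on MOE430A, lowest in sample 5. The same Psap probe set on MOE430B gave 113511, 159810.0 and 155825, where sample 5 was close to sample 4 and sample 1 was the low one. A second Psap probe set on MOE430A, with 2699, 3879 and 3122, also had sample 1 as the lowest. Psap is thus without a settled order of samples. The 7 kept probe sets of Npc2, Grn and Psap had a median deviation of 0.65, 0.25 and -0.66 on MOE430A, and 6 of the 7 were lowest in sample 5, against the same 39% of all.

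The membrane proteins had the highest median deviation of sample 1 among the roles. Lamp1, the main glycoprotein lining the lysosome, gave 118219, 53641 and 34675 (mean 68845 ± 43798, SD, n = 3). Sample 1 was 2.74-fold above the mean of the others and sample 5 was 2.30-fold below it, so the 3 samples were well spread. Lamp2, its relative that also serves in chaperone-mediated autophagy, gave 68322, 24284 and 24068 on the brightest probe set, with samples 4 and 5 nearly equal and sample 1 2.83-fold above them. The other detected probe sets of Lamp2 had sample 1 above by 2.01-fold and 3.11-fold, and on the fourth, above the limit in sample 1 alone, sample 1 was also highest.

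Scarb2, known as LIMP-2, which carries glucocerebrosidase to the lysosome, gave 20550.0, 12410.2 and 7825 with a range of 2.63-fold in the order of Lamp1. Mcoln1, a channel that releases calcium from the lysosome, varied least in this role, with 4117, 3030.5 and 2993, a range of 1.38-fold, and its second probe set had a range of 1.21-fold with sample 5 highest. Over the 7 kept probe sets of the 4 genes the median deviation was 1.06 in sample 1 (2.09-fold higher), -0.26 in sample 4 and -0.76 in sample 5. Of the 7, 6 were highest in sample 1, against 34.8% of all kept probe sets.

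Tfeb, the transcription factor that drives many of these genes when it enters the nucleus, gave 839, 424 and 299.5 and lay below the limit on every MOE430A array. Sample 1 was its highest and sample 5 its lowest, but its 2.80-fold range lies wholly under the limits. Of its relatives, Mitf gave 842, 642 and 530.3, and Tfe3, on MOE430B, gave 3906, 6679 and 6167 and passed the limit on 2 of 3 arrays. Tfec was also not detected, so none of the 4 genes of this family was.

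**Figure D2:**
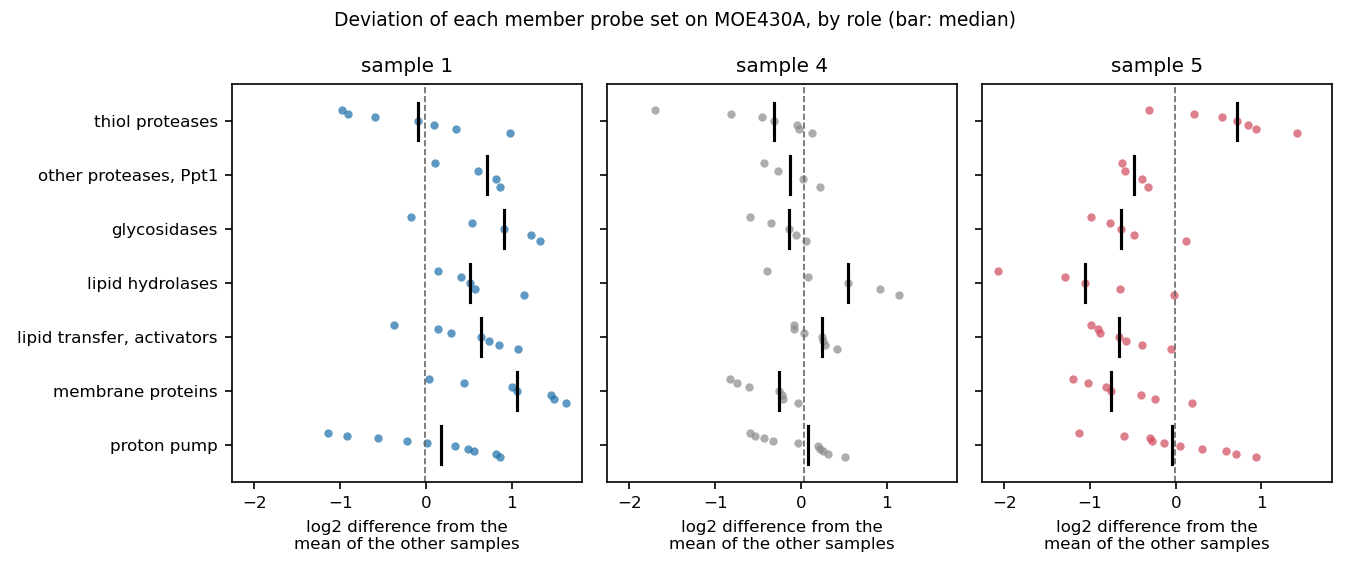
Log2 deviation of each of the 45 kept member probe sets on MOE430A from the mean of the other samples, in 1 panel per sample, by role, with the role's median as a bar and the median of all 5730 kept probe sets as a dashed line. In sample 1 membrane proteins sit highest (median 1.06), in sample 5 thiol proteases sit right of the line (0.72) and lipid hydrolases left (-1.06), and the proton pump straddles it in all 3 panels.

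The proton pump was mixed, as the plot of deviations by role shows. The 10 kept probe sets of its 7 genes had median deviations of 0.18, 0.09 and -0.04, and 5 were highest in sample 1, 1 in sample 4 and 4 in sample 5. Over all kept probe sets these shares were 34.8%, 29% and 36.3%. The membrane sector subunit Atp6v0d1 gave 9843, 7793 and 3995 on MOE430A and 22332, 24948 and 14002 on MOE430B with the same probe set, so sample 5 was the lowest on both, by 2.19-fold and 1.69-fold below the mean of the others. Atp6v1h, a regulatory subunit of the catalytic sector, ran the other way with 1016, 1889 and 2654, a range of 2.61-fold, and missed the limit in sample 1. Atp6v1b2, a nucleotide-binding subunit, had the smallest range with 4770.3, 4075 and 5448, or 1.34-fold.

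The other pump genes, Atp6ap1, Atp6ap2, Atp6v0e and Atp6v1a, had ranges between 1.46-fold and 1.96-fold on the probe set of highest signal. Probe sets of 2 of these, chosen after their values were seen, did not order the samples alike. Atp6ap2, an accessory protein also known as the prorenin receptor, gave 73638, 46771 and 53475 on the brightest probe set and 3305, 5606 and 6987 on another, so sample 1 was the highest on the former and the lowest on the latter, which had a range of 2.11-fold. Atp6v1a, the catalytic subunit, gave 2875, 4037 and 2774 and, on its second probe set, 2422, 3087 and 4099.

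The array error of these differences was read from 100 probe sets that lie on both designs and are not controls, which measure the same RNA on different arrays. The log2 difference between samples on MOE430A and that on MOE430B differed with an SD of 0.57 for sample 4 minus sample 1, 0.56 for sample 5 minus sample 1 and 0.49 for sample 5 minus sample 4. It also differed by a median of -0.27, -0.40 and -0.06. Sample 1 therefore read higher against the other samples on MOE430A than on MOE430B, over these probe sets of many functions. Over all kept probe sets the median deviation of sample 1 was -0.01 on MOE430A and -0.12 on MOE430B. The lysosomal median in sample 1, 0.51, was taken on MOE430A alone. Lamp1 (1.45) and Hexa (1.33) had no MOE430B probe set. The part of this offset in these deviations was not tested.

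**Figure D3:**
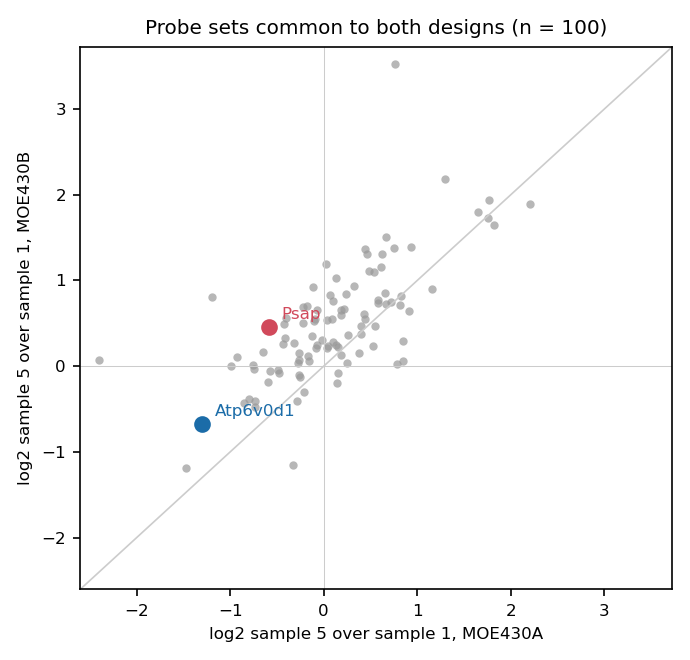
Log2 ratio of sample 5 over sample 1 for the 100 probe sets present on both designs, with MOE430A on the x axis, MOE430B on the y axis and the line of equality in grey. Most points lie above that line. Psap is at -0.59 and 0.46, with opposite signs, and Atp6v0d1 at -1.30 and -0.67.

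The members on both designs show how single genes compared between the designs. In the plot of common probe sets, Psap in sample 5 over sample 1 was -0.59 on MOE430A and 0.46 on MOE430B, and Atp6v0d1 was -1.30 and -0.67. On MOE430B 5 member probe sets were kept, of Ctsh, Ctsa, Npc2, Psap and Atp6v0d1, and 2 of them, those of Ctsh and Npc2, had a range of at least 2-fold (40%, against 28.4% of 1501). The deviation of sample 1 was 1.07 on MOE430A and 0.91 on MOE430B for Npc2, 0.82 and 0.45 for Ctsa, 0.82 and 0.26 for Atp6v0d1, -0.98 and -1.09 for Ctsh, and 0.30 and -0.48 for Psap. Thus 4 of the 5 kept the sign of sample 1 on the second design, with Ctsh, Ctsa and Npc2 read by different probe sets. The share of all genes by this measure was not taken. Of the 100 common probe sets, 68 kept the sign of the difference between samples 1 and 4. For samples 1 and 5 it was 70. These are differences of sample pairs on the same probe sets, so they are not the counterpart of the 4 of 5. In sample 4 minus sample 1, Psap (-0.01 on MOE430A and 0.49 on MOE430B) and Atp6v0d1 (-0.34 and 0.16) changed sign.

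**Figure D4:**
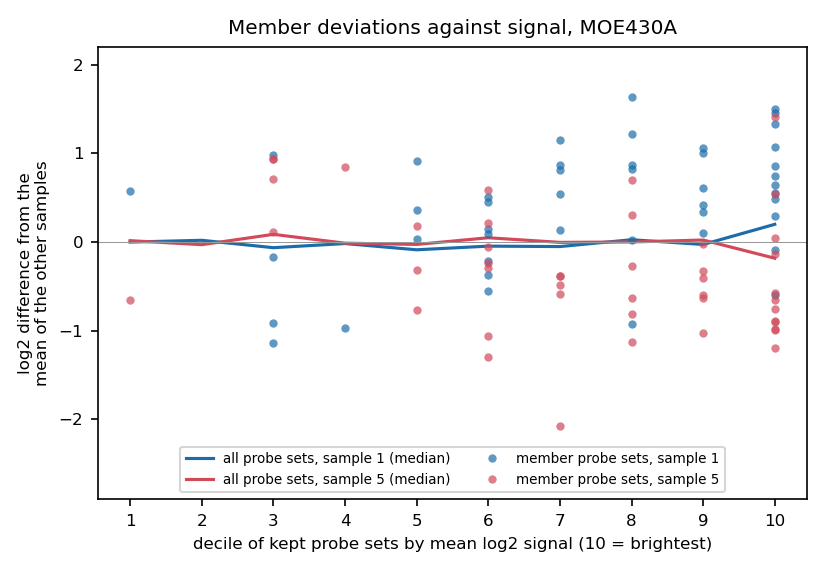
Log2 deviation of sample 1 and sample 5 from the mean of the other samples on MOE430A, against the decile of mean log2 signal, with lines for the median of all kept probe sets and points for member probe sets. The lines part in the brightest decile, at 0.20 and -0.18, and member points of sample 1 lie above the line in most deciles.

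Bright probe sets in general also leaned the same way, by less. In the brightest decile of all kept probe sets on MOE430A the median deviation was 0.20 in sample 1 and -0.18 in sample 5, and in the other deciles no median of these samples was further from 0 than 0.09. The 12 member probe sets in that decile had 0.69 and -0.71, as the plot against signal shows. After quantile normalization, which gives the 3 arrays of a design the same distribution, the brightest decile of all stood at 0.07 and -0.05 and the members in it at 0.47 and -0.53. The median of all member probe sets was then 0.43 in sample 1 and -0.39 in sample 5, while that of the proton pump in sample 5 turned from -0.04 to 0.07. The ratio of 3′ to 5′ signals, highest in sample 1, moves with the same sample, and so does the fluidics station with sample 5 on MOE430A. Their part in the result was not tested.

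The genes with the longer motif did not stand out in these deviations. Their 8 kept probe sets, of 6 genes, had medians of 0.22, 0.10 and -0.31 in samples 1, 4 and 5, against 0.63, -0.07 and -0.63 for the 30 kept probe sets of the promoters without it. Lamp1, shown above with its 4 cores, falls in the second set.

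Other genes of the same organelle, from lists that hold no member, were read beside them, and 26 of 72 measured genes were detected. The share of all 18194 genes, 22.4%, is the reference for this count and for each list that follows. Of the other lysosomal hydrolases 6 of 19 were detected, among them Arsa, the arylsulfatase A that degrades sulfatide, with 11764, 6655 and 2917, while Galc, which degrades galactosylceramide, was not, with 732, 676 and 778. The 9 kept probe sets of this list on MOE430A had medians of 0.61, -0.11 and -0.73, and 8 were highest in sample 1, against 34.8% of all. Its 3 kept probe sets on MOE430B were all highest in sample 4, as were 510 of all 1501. Their medians were -0.02, 0.37 and -0.38, so sample 5 was low on both designs and the highest sample differed between them. The kept probe sets read different genes on each design, so gene and design cannot be told apart here.

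Of the other membrane proteins 7 of 14 were detected, such as Laptm4a with 15427, 16422 and 10793, and not Cln3, a protein of the lysosomal membrane lost in juvenile Batten disease. Their 10 kept probe sets on MOE430A had medians of 0.35, -0.11 and -0.25. The 4 on MOE430B, mostly of other genes, had 0.02, -0.19 and 0.28. The low sample thus differed, but gene and design cannot be told apart here either. The other V-ATPase subunits were detected for 7 of 12, with Tcirg1 level at 1784, 1873 and 1878, and Atp6v0a1 not detected at 2502, 1985 and 687. Like the listed pump genes they were mixed, with medians of 0.11, -0.01 and 0.08 over 17 kept probe sets, all on MOE430A.

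In the delivery route, 4 of 10 genes were detected. The mannose 6-phosphate receptor gene M6pr gave 4889, 4046 and 5518, highest in sample 5, and the sorting receptor Sort1 was not detected. The cystatins, which block thiol cathepsins, were detected for 2 of 3 genes. Cst3, a secreted inhibitor, gave 24929, 11474 and 5530.0, lowest in sample 5 where Ctsl was highest, and Cstb, the cytosolic one, gave 68312, 41167 and 50530.3. Their 3 kept probe sets were all highest in sample 1, as were 34.8% of all kept probe sets on MOE430A. None of 11 cathepsins of other tissues, such as Ctse and Ctsg, was detected, and on MOE430A Ctse passed the limit in sample 1 alone.

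Because several members are abundant in macrophages and osteoclasts, markers of those and other cells were read in the same samples. In such bulk RNA, fewer cells of a type and less RNA per cell cannot be told apart. Of 17 macrophage and leukocyte markers 1 was detected, Cd14, with 2151, 2576 and 4147, highest in sample 5 like Ctsl. Ptprc, Cd68, Adgre1, Itgam and the C1q genes stayed under the limit on every array, by the probe set of highest signal. Lyz2, Csf1r and Laptm5 passed it in sample 5 alone, whose MOE430A limit was the lowest. Csf1r was level at 1191, 1222 and 1165, Laptm5 gave 908, 821 and 1122, and Lyz2 gave 400, 390 and 1168. The summed signal of the 25 probe sets of this list on MOE430A was 10853, 11404 and 12520.2, and that of the 4 on MOE430B was 4693, 1761 and 3438.5. None of 7 osteoclast markers was detected. Their sums were 2749.6, 2486 and 1597 on MOE430A and 1070, 1742 and 2774 on MOE430B. For these 2 lists the order of samples thus differed between the designs. None of 4 endothelial markers was detected, though Kdr, with 1491, 1108 and 687, passed the limit in sample 1 alone.

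Of 10 fibroblast markers 9 were detected, all but Thy1, which passed the limit in samples 1 and 4. Their summed signal on MOE430A was 677304, 808895 and 455680. Of 16 kept probe sets 4 were highest in sample 1, 11 in sample 4 and 1 in sample 5. Over all kept probe sets the shares were 34.8%, 29% and 36.3%. The medians of the list were 0.61, 0.88 and -1.70. Sample 5 was thus lower in this list as well, by more than in the lysosomal list, while the highest sample differed. Of 5 epithelial markers 1 was detected, Epcam, by a MOE430B probe set alone, with 31382, 139544 and 29693, and its MOE430A probe set was under the limit on all arrays. The part of these markers in the result was not tested.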

How the data were processed

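The deposited values are signal intensities on a linear scale, 1 per probe set and array, made by the authors in MAS5 according to the submitters' processing notes; the MAS5 version was not given in the sources used here. Deposited run settings (text) were used to check array design, sample and fluidics station, per the file headers. The designs were kept apart. The mean signal, trimmed by 2% at both ends, was 1501 on MOE430A arrays and 1500 on MOE430B arrays. Probe sets naming 1 gene numbered 20393 of 22690 and 14674 of 22575. Unused columns of per-sample values numbered 0.

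The members, gene lists and rules were chosen with earlier results of these data known. Limits came from 75 measured genes of a list of 81, with 96 probe sets on MOE430A and 7 on MOE430B; 4 of these genes were themselves detected. Signals were floored at 1 before log2. Each gene is shown on a design by the detected probe set with the highest mean log2 signal there, else by the brightest one. Values are given for members fixed by name, those not detected, those with a range of at least 2-fold and the widest and narrowest of each role; of other lists the first detected and first not detected. The script was tested on simulated data, where 199 of 200 probe sets changed 4-fold in 1 sample on MOE430A, among 20393, were recovered. The changed probe sets were drawn from bright ones only and called at the 2-fold mark. Recovery of smaller changes or of dim probe sets was not tested. Python 3.11.15, numpy 2.4.6 and pandas 2.3.3 were used. Alternatives covered the limit, detection rule, filter, pseudocount, normalization and samples.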

Additional observations from a re-analysis of the deposited data

How the results depend on the processing

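The median deviations of the lysosomal probe sets kept their sign in samples 1 and 5 under every alternative run, at 0.32 to 0.62 in sample 1 and -0.62 to -0.11 in sample 5; sample 4 lay between -0.33 and 0.11. Without sample 1 the difference of sample 5 shrank to -0.11, and without sample 5 that of sample 1 to 0.33. The number of detected genes, 27, became 16 when detection was required of the majority of a gene's probe sets. On MOE430B, the 2 detected probe sets became 4 with the limit at the 90th percentile, 6 with detection on at least 2 of 3 arrays, 5 with a limit from receptor and similar gene families (chosen after seeing the data) and 2 to 5 with a sample left out, 5 of them without sample 5. The 21 probe sets with a 2-fold range on MOE430A became 34 with no filter and 5 to 18 with a sample left out, with 5 without sample 1 and 6 without sample 5. The 2 on MOE430B became 1 without probe sets ending in _s_at or _x_at, 15 with no filter, 0 among probe sets above the limit on 3 of 3 arrays and 0 to 2 with a sample left out, 0 without sample 1 or sample 5. A single pair of samples spans less than 3, and the filters change how many probe sets enter. For these counts the shares over all genes or probe sets were not taken under the alternatives. Of 29 ranges of named genes, quantile normalization took that of Ppt1 past 2-fold (log2 1.01) and that of Npc2 below it (0.93), and a pseudocount of 64 changed none. A median over genes, chosen after seeing the data, gave 0.54, -0.08 and -0.48. A second tissue list was not run, since only 1 list was at hand. No paired analysis was possible because the samples form 1 group and no test between groups was made. Signal over background limits what can be said of genes near the limits, most of all on MOE430B, and 3 arrays a design limit the precision of every range.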
